A study of Arabidopsis thaliana with 4 samples.

Results

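Heat shock proteins are molecular chaperones that keep other proteins folded or bring them back from aggregates. They were named for their rise in heated cells, but many members are made in unstressed tissue and serve the folding of newly made proteins, their import into organelles and the maturation of signalling proteins. Small heat shock proteins hold unfolding proteins without using ATP, HSP70 binds and releases exposed stretches of a polypeptide in an ATP-driven cycle, HSP90 acts later on nearly folded clients such as kinases and receptors, and HSP100 (ClpB) proteins pull proteins out of aggregates. In plants the genes are switched on by heat shock transcription factors, and separate members serve the cytosol, plastids, mitochondria, peroxisomes and the endoplasmic reticulum.

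The heat shock protein genes described here are the loci on the array whose annotation names a heat shock protein or a heat shock family protein, without those annotated as DnaJ proteins or as transcription factors. This gave 58 of the 25660 nuclear loci on the array, each measured by 1 probe. Of these, 28 were small heat shock proteins, 11 were HSP70, 6 were HSP90, 10 belonged to an HSP100 group and 3 were others. The rule reads the annotation text only and used no expression value, so chaperones that the annotation describes in other words are not counted. All 58 members passed the filter on low signal, and 50 of them were well above background on all 4 arrays.

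Transcripts were measured in a meristematic fraction (Me) and in young leaves (Le) of Arabidopsis thaliana, both cut by hand from clv3-9 plants. All plants, in both tissues, were in the Columbia background, carried the clv3-9 point mutation, which abolishes function of the stem cell restricting peptide gene CLV3 and enlarges the meristem, and were 9 weeks old after growth in short days of 8 h light and 16 h darkness. Each tissue was hybridised as 2 biological replicates to 1-colour Agilent arrays, and no wild-type plant and no heated plant was part of the comparison. Because the plants carried a mutation that enlarges the meristem, the meristematic fraction stands for clv3-9 meristems, and it is an enriched fraction rather than purified cells.

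The labels of the tissues were checked with marker genes. All 6 meristem markers, among them STM, WUS and CLV3, were higher in the meristem. WUS, with a probe not well above background in leaf, was at least 33.0-fold higher, and the other 5 were higher by 4.97 to 6.73 on the log2 scale. All 8 leaf markers (RBCS and light-harvesting genes and CA1) were lower, CA1 being well above background on 1 meristem array only, and the other 7 had differences of -1.75 to -7.44. The summed linear signal of the leaf markers was 302140 and 256040 in meristem replicates 1 and 2, against 1878500 and 1559500 in leaf replicates 1 and 2, and the sum of the meristem markers was 15908 and 21138 in the meristem, against 269 and 292 in leaf. Between 60.1% and 63.3% of the probes were well above background on each array.

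In all, 23 of the 58 heat shock protein genes were higher in the meristem and 8 were lower at an adjusted p of at most 0.05 (limma, Benjamini-Hochberg adjustment over 23255 loci), and 27 were not called. Over all loci tested, 27.1% were higher and 21.6% were lower, against 39.7% and 13.8% of the members. The median difference of the members was 0.52 on the log2 scale, beside 0.10 for all loci. With the added demand of a 4-fold difference, the size rule of the study, 8 members were higher and 1 was lower, that is 13.8% and 1.72% of the members, while 6.55% and 6.42% of all loci passed. All 8 of the 4-fold higher members were small heat shock proteins. The split between the directions moved with the scaling of the arrays, to 19 higher and 15 lower with the array median, where 17.6% of all loci were higher and 29.7% lower, and to 42 higher and 4 lower (72.4% and 6.90%) with the spike-in controls, where 64.6% of all loci were higher and 11.3% lower. With the methods' t-test after adjustment, 7 members were higher and 7 lower, 12.1% each way, beside 2808 higher (12.1%) and 2802 lower of the 23255 loci. The counts also depend on the background correction: with a normexp correction in place of the scanner's own, 0 members were called higher and 2 lower by limma (14 higher and 5 lower at an unadjusted p of at most 0.05), while 547 loci of the array were still called higher and 1305 lower.

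**Figure D1:**
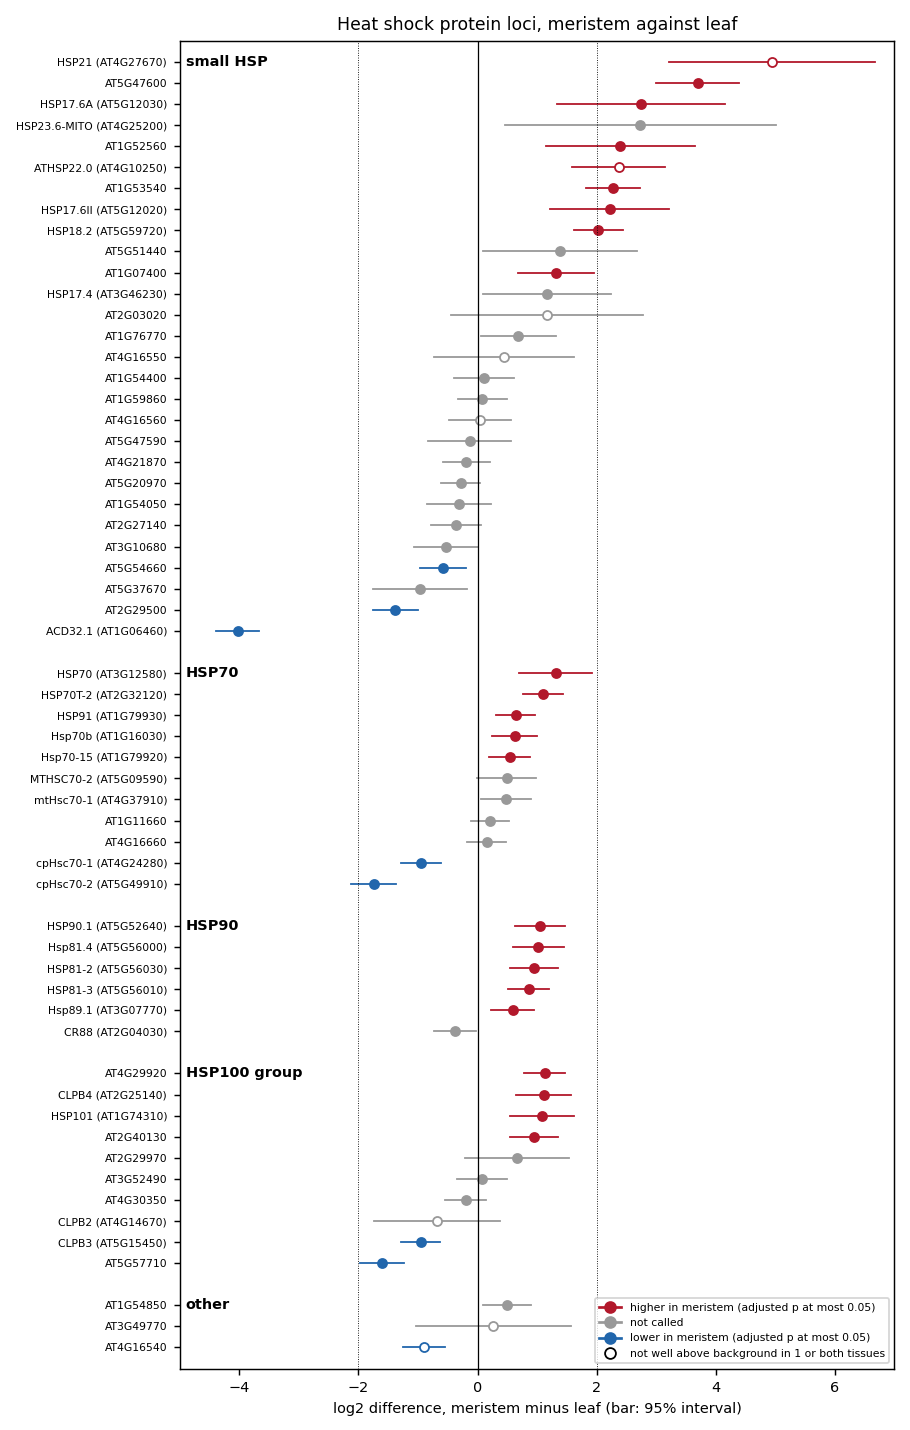
Log2 difference, meristem minus leaf, of the 58 heat shock protein loci in 5 groups, with its 95% interval from the limma fit over 2 arrays per tissue; colour gives the call, open circles mark probes not well above background in 1 or both tissues, and dotted lines mark a 4-fold difference. The 6 HSP90 members, called or not, lie between -0.38 and 1.05. The small heat shock proteins well above background in both tissues, called or not, spread between -4.03 and 3.70.

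Of the 6 HSP90 members, 5 were higher in the meristem and 0 were lower, with a median of 0.90, and 1 member was not called. The shares were 83.3% and 0%, beside 27.1% and 21.6% of all loci tested. Without leaf replicate 2, HSP81-2, HSP81-3 and Hsp89.1 lost their calls and 2 members stayed called. The cytosolic members form a set of near-identical genes that assist signalling proteins such as receptors and kinases. HSP90.1 (AT5G52640), the cytosolic member best known for its induction by heat, had log2 signals of 10.91 and 11.19 in the meristem, against 9.94 and 10.06 in leaf. Both meristem arrays were above both leaf arrays, and the difference was 1.05 ± 0.15 (SE, 2 arrays per tissue), with an adjusted p of 0.0076. Here and below, a lack of overlap between 2 and 2 arrays is description only. The share of all loci without overlap was not counted.

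The constitutive cytosolic HSP90 genes lie next to each other on chromosome 5. Hsp81.4 (AT5G56000) had 11.40 and 11.32 in the meristem, against 10.18 and 10.49 in leaf, a difference of 1.02 ± 0.16 (adjusted p = 0.0088). HSP81-2 (AT5G56030) had 12.86 and 12.68 in the meristem, against 11.93 and 11.72 in leaf, a difference of 0.95 ± 0.15 (adjusted p = 0.0090). HSP81-3 (AT5G56010) had 14.18 and 14.13 in the meristem, against 13.36 and 13.23 in leaf, a difference of 0.86 ± 0.12 (adjusted p = 0.0073). In all 3 neighbours the tissues did not overlap, which is description only, and the intervals of the differences overlapped. The probes of Hsp81.4, HSP81-3 and HSP81-2 start at positions 22695108, 22701121 and 22706788 of chromosome 5 in the coordinates of the array file, which names no genome build. Since these genes are near-identical and the probe sequences were not used here, signal shared between their probes was not tested.

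The organellar HSP90 members differed from each other. Hsp89.1 (AT3G07770), the mitochondrial member, had 10.97 and 11.02 in the meristem, against 10.30 and 10.50 in leaf, a difference of 0.59 ± 0.13 (adjusted p = 0.0258). Its call was lost when any 1 of the 4 arrays was left out. CR88 (AT2G04030), the chloroplast member, had 11.31 and 11.40 in the meristem, against 11.65 and 11.81 in leaf. It was the only HSP90 member with lower values on both meristem arrays than on both leaf arrays, but its difference of -0.38 ± 0.13 was not called (adjusted p = 0.0756), and it turned positive, at 0.04, without scaling and at 0.39 when arrays were scaled to the spike-in controls.

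Among the 11 HSP70 members, 5 were higher in the meristem (45.5%), 2 were lower (18.2%) and 4 were not called, with a median of 0.49. Over all loci tested, 27.1% were higher and 21.6% were lower. None of the 11 reached a 4-fold difference, and all 11 were well above background on all 4 arrays. The higher members include cytosolic and HSP110-like proteins, and both lower members are plastid proteins. HSP70 (AT3G12580), a cytosolic form that is strongly heat-inducible, had 10.15 and 10.72 in the meristem, against 9.09 and 9.15 in leaf. The meristem replicates stood further apart than the leaf replicates, yet both were above leaf, and the difference was 1.31 ± 0.23 (adjusted p = 0.0115). HSP70T-2 (AT2G32120), a truncated HSP70, had 7.89 and 8.00 in the meristem, against 6.87 and 6.81 in leaf, a difference of 1.11 ± 0.12 (adjusted p = 0.0037).

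The remaining higher HSP70 members showed smaller differences. Hsp70b (AT1G16030), another heat-inducible cytosolic form, had 7.76 and 7.89 in the meristem, against 7.10 and 7.31 in leaf, a difference of 0.62 ± 0.14 (adjusted p = 0.0254). HSP91 (AT1G79930, also called Hsp70-14) had 12.13 and 12.24 in the meristem, against 11.53 and 11.56 in leaf, a difference of 0.64 ± 0.12 (adjusted p = 0.0155). Its neighbour Hsp70-15 (AT1G79920) had 12.99 and 13.13 in the meristem, against 12.49 and 12.55 in leaf, a difference of 0.54 ± 0.13 (adjusted p = 0.0275). HSP91 and Hsp70-15 are HSP110-like proteins, which act as nucleotide exchange factors of HSP70, and they are similar enough in sequence that shared probe signal cannot be left out of account. These 3 members lost their calls when arrays were scaled to the median, and all 3 lost them without either leaf replicate, so that 2 HSP70 members were called higher in those settings.

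The plastid HSP70 proteins, which take part in protein import into the chloroplast stroma, ran the other way. cpHsc70-2 (AT5G49910) had 9.03 and 9.04 in the meristem, against 10.66 and 10.89 in leaf. The meristem arrays were alike and well below both leaf arrays, with a difference of -1.74 ± 0.14 (adjusted p = 0.0016), and cpHsc70-2 kept its call in all 14 alternative settings. cpHsc70-1 (AT4G24280) had 13.05 and 12.99 in the meristem, against 13.90 and 14.03 in leaf, a difference of -0.95 ± 0.12 (adjusted p = 0.0056). The call of cpHsc70-1 was lost without scaling and with spike-in scaling. The mitochondrial MTHSC70-2 (AT5G09590) and mtHsc70-1 (AT4G37910) had differences of 0.49 (adjusted p = 0.0919) and 0.48 (adjusted p = 0.0640) and were not called. The last members not called, AT1G11660 and AT4G16660, had differences of 0.21 and 0.15, which turned to -0.08 and -0.14 with scaling to the median.

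**Figure D2:**
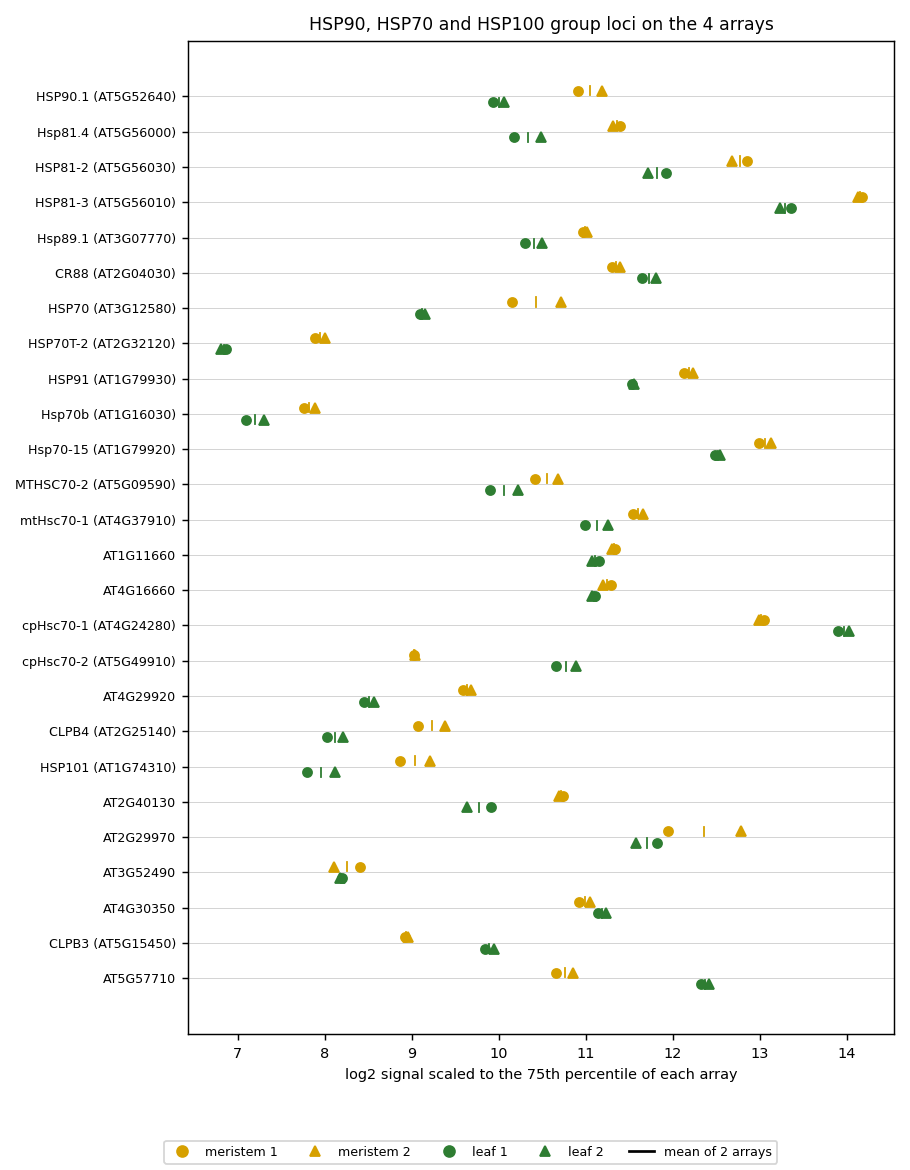
Log2 signal (x axis, arrays scaled to their 75th percentile) of the HSP90, HSP70 and HSP100 group loci that were well above background, on meristem arrays 1 and 2 (yellow, upper) and leaf arrays 1 and 2 (green, lower), with a line at each mean of 2 arrays; rows are different probes and their levels are not comparable. The meristem values lie above the leaf values for HSP90.1 and the HSP81 genes and below them for cpHsc70-1, cpHsc70-2, CLPB3 and AT5G57710.

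The small heat shock proteins held both the largest positive and the largest negative differences of the 58 members. Of the 28, 9 were higher in the meristem (32.1%), 3 were lower (10.7%) and 16 were not called. Over all loci tested, 27.1% were higher and 21.6% were lower. The median of the 28 was 0.56. It was 0.42 where the 3 differences that rest on a probe not well above background in leaf were set to their bounds. The members fell into 2 kinds by how they were assigned to the family, 17 by a locus list and 11 by annotation text. The list was chosen with earlier results of these data known. Among the 17 with an established small heat shock protein name or class, 8 were higher, 2 were lower and 7 were not called, with a median of 1.38. Among the 11 that were placed in the family by weak or general similarity alone, 1 was higher, 1 was lower and 9 were not called, with a median of 0.05. This median is the value of AT4G16560, whose probe was well above background on 0 of the 4 arrays. AT4G16550 and AT2G03020, of the same kind, also lacked a level well above background in leaf. No test of this split was made.

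HSP21 (AT4G27670), the chloroplast small heat shock protein, had 5.14 and 6.95 in the meristem, against 1.23 and 0.97 in leaf. The probe was well above background on both meristem arrays and on 0 of the leaf arrays, so the leaf level is only a bound. The meristem signal of HSP21 exceeded that of leaf at least 7.81-fold. The limma adjusted p of 0.0053 belongs to the fitted difference, which uses the leaf values as given, and not to this bound. With the normexp correction the difference of HSP21 was 0.82 (limma, adjusted p = 0.64). The meristem arrays lie far apart, and the bound is 4.17-fold with replicate 1 alone and 14.6-fold with replicate 2 alone. The bound sets the mean of the meristem arrays against the mean, over the leaf arrays, of the lowest signal that was well above background on each. ATHSP22.0 (AT4G10250), the endoplasmic reticulum form, had 4.56 and 5.32 in the meristem, against 2.64 and 2.51 in leaf. It too was well above background on both meristem arrays and on neither leaf array, and was at least 3.64-fold higher. Its adjusted p of 0.0045 likewise belongs to the fitted difference. With the normexp correction that difference was 0.08 (limma, adjusted p = 0.97). With bounds in place of measured differences, 7 small heat shock proteins remained 4-fold higher.

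The class I proteins of the cytosol, which form large oligomers that hold unfolding proteins, divided among themselves. The gene annotated HSP17.6C-CI (AT1G53540) had 8.44 and 8.68 in the meristem, against 6.41 and 6.16 in leaf, a difference of 2.27 ± 0.17 (adjusted p = 0.0013). HSP18.2 (AT5G59720) had 9.49 and 9.74 in the meristem, against 7.67 and 7.50 in leaf, a difference of 2.03 ± 0.15 (adjusted p = 0.0014). HSP17.8-CI (AT1G07400) had 8.31 and 8.90 in the meristem, against 7.34 and 7.24 in leaf, a difference of 1.31 ± 0.24 (adjusted p = 0.0131). All 3 were above leaf on both meristem arrays, which is description only.

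HSP17.6B-CI (AT2G29500), of the same class, was lower. It had 7.13 and 6.91 in the meristem, against 8.42 and 8.39 in leaf, a difference of -1.38 ± 0.14 (adjusted p = 0.0027). HSP17.6A-CI (AT1G59860) had 6.23 and 6.26 in the meristem, against 6.31 and 6.03 in leaf, and the meristem values lay between those of leaf. Its difference of 0.08 (95% interval -0.34 to 0.49, adjusted p = 0.7025) was not called and turned negative, at -0.22, with scaling to the median. HSP17.4 (AT3G46230) had 4.47 and 5.53 in the meristem, against 3.98 and 3.69 in leaf. Both meristem arrays were higher, but 1 of them only slightly, and the difference of 1.16 was not called (adjusted p = 0.0723). The class I genes have similar sequences, and shared probe signal among them was not tested.

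Both class II genes, which lie next to each other on chromosome 5 with probes that start at 3882798 and 3884596, were higher in the meristem. HSP17.6A (AT5G12030, annotated HSP17.7-CII) had 6.48 and 7.96 in the meristem, against 4.47 and 4.49 in leaf, a difference of 2.74 ± 0.52 (adjusted p = 0.0153). HSP17.6II (AT5G12020) had 6.16 and 7.17 in the meristem, against 4.40 and 4.50 in leaf, a difference of 2.22 ± 0.37 (adjusted p = 0.0104). In both genes meristem replicate 2 was more than 1 unit above replicate 1, while the leaf replicates lay close together. The class III gene HSP17.4-CIII (AT1G54050), whose product is found in the nucleus and cytosol, had a difference of -0.31 and was not called.

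The annotation of the gene called HSP26.5-P (AT1G52560) names no compartment. It had 7.40 and 6.99 in the meristem, against 5.41 and 4.18 in leaf, a difference of 2.40 ± 0.46 (adjusted p = 0.0158). The difference was not called without meristem replicate 1, at 2.19. The mitochondrial HSP23.6-MITO (AT4G25200) had 5.64 and 7.84 in the meristem, against 4.52 and 3.50 in leaf. The tissues did not overlap, and the difference of 2.73 was close in size to that of the class II genes, but its SE was 0.84 and it was not called (adjusted p = 0.0570). The second mitochondrial gene, HSP23.5-M (AT5G51440), had 6.81 and 8.14 in the meristem, against 6.19 and 6.004 in leaf, a difference of 1.38 that was not called either (adjusted p = 0.0759).

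The largest difference among the small heat shock proteins measured above background in both tissues was in the other direction. ACD32.1 (AT1G06460), a peroxisomal alpha-crystallin domain protein, had 8.71 and 8.82 in the meristem, against 12.88 and 12.71 in leaf. The replicates of each tissue were close, and the difference of -4.03 ± 0.13 (adjusted p = 0.0005), a 16.4-fold lower signal, kept its call in all 14 alternative settings. HSP15.7 (AT5G37670), the second small heat shock protein known from peroxisomes, had 7.26 and 6.49 in the meristem, against 7.90 and 7.78 in leaf. Both meristem arrays were lower, and the difference of -0.97 was not called (adjusted p = 0.0540).

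**Figure D3:**
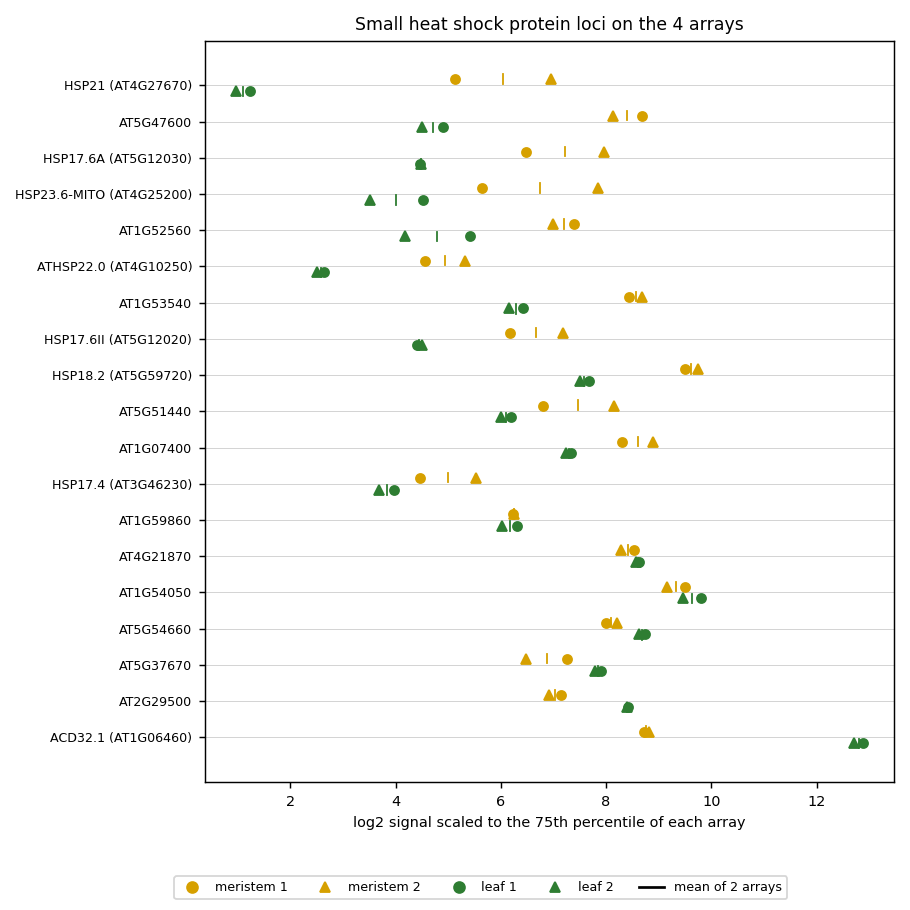
Log2 signal (x axis, arrays scaled to their 75th percentile) of the 17 small heat shock proteins with an established name and of AT5G47600 and AT5G54660, on meristem arrays 1 and 2 (yellow, upper) and leaf arrays 1 and 2 (green, lower), with a line at each mean of 2 arrays; rows are different probes and their levels are not comparable. HSP21 is at the top, with leaf values of 1.23 and 0.97 that are not well above background, and ACD32.1 at the bottom, with leaf values of 12.88 and 12.71.

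Among the genes placed in the family by similarity alone, AT5G47600 stood apart. It is annotated with weak similarity to a mitochondrial small heat shock protein and had 8.68 and 8.13 in the meristem, against 4.91 and 4.51 in leaf. The difference was 3.70 ± 0.26 (adjusted p = 0.0012), which was 13.0-fold. With the normexp correction AT5G47600 had a difference of 1.72 and was not called (limma, adjusted p = 0.18). Its neighbour on chromosome 5, AT5G47590, with the same kind of annotation, had 7.50 and 8.17 in the meristem, against 7.99 and 7.95 in leaf. The meristem values lay on both sides of leaf, and the difference was -0.13 (95% interval -0.83 to 0.56). The intervals of the neighbours did not meet, since that of AT5G47600 ran from 2.999 to 4.39. The difference between the neighbours was not itself tested.

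AT5G54660 had 8.00 and 8.20 in the meristem, against 8.73 and 8.62 in leaf, a difference of -0.58 ± 0.14 (adjusted p = 0.0299). It was the only called member that changed sign in any setting, at 0.18 with spike-in scaling. AT1G76770 had a difference of 0.69 (adjusted p = 0.0739), and AT3G10680 had -0.53 (adjusted p = 0.0894). The not called AT1G54400, AT4G21870, AT5G20970 and AT2G27140 lay between -0.36 and 0.11. AT2G03020 was well above background on 1 meristem array only, and AT4G16550 and AT4G16560 on 0 of the 4 arrays, so that their differences are not interpreted here.

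The small heat shock proteins also varied more than other loci between the replicates. Their median absolute gap between the meristem arrays was 0.49, against 0.20 for all loci tested, while between the leaf arrays it was 0.18, against 0.15. Meristem replicate 2 was the higher of the pair for 19 of the 28, where 52.1% of all loci were higher on it. In leaf, 24 of the 28 were higher on replicate 1, where 53.8% of all loci were. Without meristem replicate 2, 5 members in all were still 4-fold higher, and without meristem replicate 1 there were 9.

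Of 6 marker genes known to respond to wounding and touch, 5 were higher in the meristem, 3 of them by 4-fold or more. The shares over all loci tested were 27.1% and 6.55%. JAZ5, a jasmonate-induced repressor, had a difference of 3.94, JAZ10 had 2.66, RHL41 (ZAT12), a stress-induced zinc finger protein, had 2.47, and TCH4, a touch-induced cell wall enzyme, had 1.57. JAZ1 had 1.56, and TCH3 had 0.41 and was not called (adjusted p = 0.0600). Their summed linear signal was 79383 and 66888 in the meristem, against 31397 and 29355 in leaf. With the normexp correction 5 of the 6 markers were still called higher, where 2.35% of all loci were. Of the 6 markers, 1 was higher on meristem replicate 2 than on replicate 1, where 52.1% of all loci were. The part of dissection in the differences between the tissues was not tested.

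The HSP100 group held 4 ClpB disaggregases and 6 genes of the SMAX1 family. The SMAX1 family shares a Clp-like ATPase fold with ClpB, but its members are known as repressors in karrikin and strigolactone signalling rather than as chaperones. In the group 4 genes were higher in the meristem, 2 were lower and 4 were not called. The shares were 40% and 20%, beside 27.1% and 21.6% of all loci tested. HSP101 (AT1G74310), the cytosolic disaggregase needed for acquired heat tolerance, had 8.87 and 9.21 in the meristem, against 7.80 and 8.13 in leaf, a difference of 1.08 ± 0.20 (adjusted p = 0.0138) that was not called without leaf replicate 1. CLPB4 (AT2G25140), the mitochondrial form, had 9.08 and 9.39 in the meristem, against 8.03 and 8.22 in leaf, a difference of 1.11 ± 0.17 (adjusted p = 0.0084).

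CLPB3 (AT5G15450), the plastid form, which is needed for chloroplast development, was lower. It had 8.92 and 8.96 in the meristem, against 9.85 and 9.94 in leaf, a difference of -0.96 ± 0.12 (adjusted p = 0.0050). The direction was the opposite of that of the cytosolic and mitochondrial forms, and the call of CLPB3 was lost without scaling and with spike-in scaling. CLPB2 (AT4G14670) was well above background on 0 of the 4 arrays.

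Among the SMAX1 family genes, 2 were higher, 1 was lower and 3 were not called. SMAX1 (AT5G57710), the repressor of karrikin responses, had 10.66 and 10.86 in the meristem, against 12.32 and 12.42 in leaf, a difference of -1.61 ± 0.14 (adjusted p = 0.0018). SMXL4 (AT4G29920), known for a role in phloem formation, had 9.59 and 9.68 in the meristem, against 8.45 and 8.57 in leaf, a difference of 1.13 ± 0.13 (adjusted p = 0.0037). SMXL8 (AT2G40130), a strigolactone pathway repressor, had 10.74 and 10.69 in the meristem, against 9.91 and 9.63 in leaf, a difference of 0.95 ± 0.15 (adjusted p = 0.0093). Each of these 3 genes had tissues that did not overlap, which is given as description only.

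The related SMXL7 (AT2G29970) had 11.95 and 12.78 in the meristem, against 11.82 and 11.59 in leaf, and its difference of 0.66 was not called (adjusted p = 0.1593). AT3G52490 had a difference of 0.07 and AT4G30350 had -0.20, and both changed sign with the scaling of the arrays, to -0.23 for AT3G52490 with the median and to 0.56 for AT4G30350 with the spike-in controls. Of the 3 other members, AT1G54850 had a difference of 0.49 (adjusted p = 0.0550). AT3G49770 and AT4G16540 were well above background on 0 of the 4 arrays. AT4G16540 passed the threshold as lower (adjusted p = 0.0069) on those values, and no fold is given for it.

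Seen by the compartment of the product, a grouping made after the values were known, plastid members were found on both sides. cpHsc70-1, cpHsc70-2 and CLPB3 were lower in the meristem, by 0.95, 1.74 and 0.96, and CR88 was at -0.38 without a call. HSP21, also a plastid protein, went the other way, at least 7.81-fold higher. With the normexp correction the difference of HSP21 was 0.82 and was not called (limma, adjusted p = 0.64). The gene annotated HSP26.5-P (AT1G52560) was also higher, at 2.40, but its annotation names no compartment. AT4G21870, whose annotation also gives the name HSP26.5-P, was at -0.19 without a call. Leaf tissue also had the higher signals of the photosynthesis markers given above, and in tissue samples a smaller share of plastid-rich cells and less transcript per cell cannot be told apart.

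The regulators and partners of these chaperones were counted in the same fit. Of 21 heat shock transcription factor genes, 9 were higher in the meristem and 2 were lower (42.9% and 9.52%), beside 27.1% and 21.6% of all loci tested. The count of higher factors was 5 without either leaf replicate, 17 with spike-in scaling and 2 with the normexp correction, settings in which the calls over all loci fell or rose as well. HSFB4 (SCHIZORIZA), known for its role in root stem cell divisions, had 10.92 and 11.06 in the meristem, against 8.50 and 8.44 in leaf, a difference of 2.51 (adjusted p = 0.0007). HSF4 (HSFB1), a repressor that is itself heat-induced, had a difference of 2.27 (adjusted p = 0.0014). HSFA6B was at least 5.51-fold higher, a bound, and its adjusted p of 0.0017 belongs to the fitted difference.

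HSFA6A was lower, with 3.67 and 4.47 in the meristem, against 8.19 and 8.28 in leaf, a difference of -4.17 (adjusted p = 0.0013). The other factor called lower, HSFA9, had a probe that stood well above background on 0 of the 4 arrays. HSFA2, the factor that sustains heat-induced expression, had 6.89 and 7.48 in the meristem, against 6.48 and 6.51 in leaf, and its difference of 0.69 was not called (adjusted p = 0.0733). Both meristem values of HSFA2 were above leaf.

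A list of 13 partner genes held co-chaperones of HSP90 and HSP70 and the heat shock factor binding protein HSBP, which was not called. Of the 13, 7 were higher and 0 were lower (53.8% and 0%), beside 27.1% and 21.6% of all loci tested. All 13 had a positive difference, beside 54.8% of all loci tested, against 8 of 13 with scaling to the array median. All 13 were called higher with spike-in scaling (64.6% of all loci), 0 with the normexp correction (2.35% of all loci) and 4 without leaf replicate 1 (16.1% of all loci). Hop3, the heat-inducible adaptor between HSP70 and HSP90, had 7.96 and 8.10 in the meristem, against 6.46 and 6.44 in leaf, a difference of 1.58 (adjusted p = 0.0015). AT3G03773, a p23-type HSP90 co-chaperone, had a difference of 1.27 (adjusted p = 0.0032). BOB1 (BOBBER1), a NudC-type chaperone needed for development and heat tolerance, had 1.20 (adjusted p = 0.0042). Fes1A, which protects cytosolic HSP70, had 0.86 (adjusted p = 0.0065).

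Of 6 other heat response genes, 4 were called higher (2 without either leaf replicate), namely HSA32 (1.28, adjusted p = 0.0025), GolS1 (0.84, adjusted p = 0.0111), DREB2A (0.51, adjusted p = 0.0381) and APX2, whose probe was well above background on 0 of the 4 arrays. MBF1C and BAG6, both strongly heat-induced in other settings, had differences of -0.28 and -0.18 and were not called. The share of the 6 called higher was 66.7%, APX2 included, beside 27.1% of all loci tested. Of 10 folding factors of the endoplasmic reticulum, 1 was called higher (10%, beside 27.1% of all loci tested). It was the calreticulin CRT1a at 0.56 (adjusted p = 0.0247). All 10 differences were positive, against 5 of 10 with scaling to the array median. With spike-in scaling, where 64.6% of all loci were called higher, all 10 were.

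The scaling of the arrays shifted every family at once. The median difference of all loci was 0.10 with the 75th percentile, 0.51 without scaling, 0.86 with the spike-in controls and -0.20 with the array median. These settings add 1 constant per array, so the gap between a family and all loci is the same in each, and only the family's own median moves: between 0.60 and 1.67 for HSP90, between 0.19 and 1.25 for HSP70 and between 0.27 and 1.33 for the small heat shock proteins. Quantile normalization, which is not a constant shift, gave medians of 1.096, 0.52 and 0.50 for HSP90, HSP70 and the small heat shock proteins, beside 0.09 for all loci. With the normexp correction the median of the small heat shock proteins was -0.09, beside -0.07 for all loci, while HSP90 and HSP70 stood at 0.91 and 0.48.

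**Figure D4:**
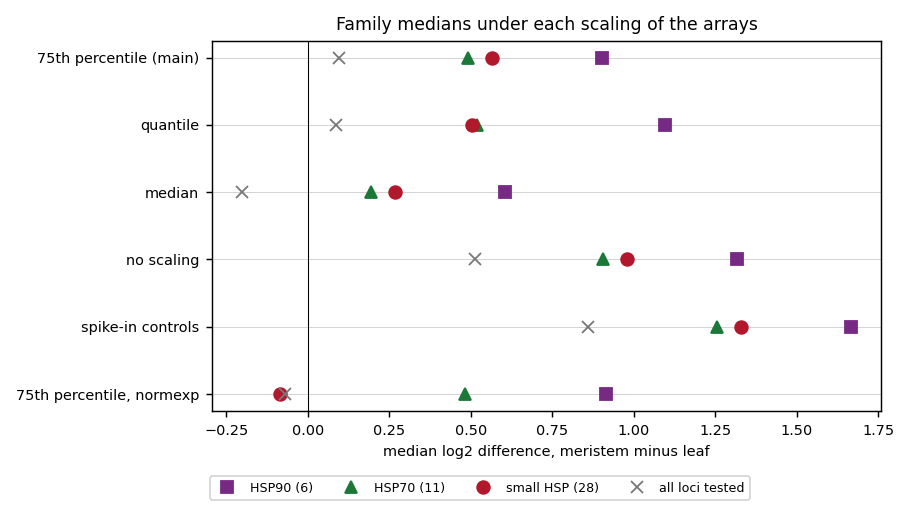
Median log2 difference, meristem minus leaf (x axis), of the HSP90, HSP70 and small heat shock protein members and of all loci tested, under 5 scalings of the arrays and under the normexp background correction. The median of HSP90 runs from 0.60 to 1.67, and that of the small heat shock proteins falls to -0.09 under normexp.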

How the data were processed

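RNA from 2 meristem and 2 leaf samples was labelled with Cy3 and hybridised to Agilent arrays of 37685 gene spots, all on 1 slide. The deposited intensity values are scanner output per spot, and the authors' Feature Extraction software had subtracted the background to make the processed signal. Deposited flags per spot and probe coordinates were also used, and no genome build is named for them. Processed signals were taken as log2 with outlier spots left out, brought to a common 75th percentile across arrays, and the brightest probe stood for a locus. The study's methods do not state these steps. Loci entered the test where both arrays of at least 1 tissue had signal above 0 after background subtraction. Differences were tested with limma 3.58.1 in R 4.3.3, with Benjamini-Hochberg adjustment over 23255 loci and a threshold of 0.05. Bounds replace folds for probes not well above background in a tissue. An exact permutation test cannot go below p = 0.333 with 2 arrays per tissue, and the number of arrays limits the precision.

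Members were assigned to families by a locus list (37) or by annotation text (21), and symbols come from RefSeq. The members and gene lists were chosen with earlier results of these data known. Genes named with values on all arrays were every HSP90 member, the called HSP70 and small heat shock protein members with the largest differences in each direction and the called members of the other families, with some members that were not called added after their values were seen. Levels were not ranked between probes. The test was tried on simulated data, and the simulated effect sizes and the pass mark were changed once after a first version recovered too few of the small effects. Alternatives were the normexp correction (offset 50), other scalings, other filters, the mean of probes, the methods' t-test, a replicate block and leaving out each array. Promoter and protein sequences were not analysed here.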

Additional observations from a re-analysis of the deposited data

How the results depend on the processing

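Of the 31 called members, 2 (ACD32.1 and cpHsc70-2) kept their call in all 14 alternatives, 9 kept it in all but the normexp correction, and 1 changed sign. The filters and the mean of probes moved no count of all members, small heat shock proteins, HSP70 or HSP90 by over 1.5 times. With 2 arrays per tissue, small differences are at the limit of what can be called, and dim probes, among them several small heat shock proteins, give less certain values.

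With the normexp correction 0 members were higher and 2 were lower, 0 were 4-fold higher, and the small heat shock proteins had 0 higher and 1 lower with a median of -0.085. HSP70 then had 0 higher and 1 lower and HSP90 had 0 higher. The same limma fit gave 14 members higher and 5 lower at an unadjusted p of at most 0.05, and the cause was not tested. The methods' t-test after adjustment gave 7 members higher and 7 lower (12.1% each way, beside 2808 and 2802 of 23255 loci), 3 of the higher ones 4-fold, with 3 small heat shock proteins, 2 HSP70 and 1 HSP90 (before adjustment, with the 4-fold rule, it gave 6 members higher and 1 lower). The median of HSP90 was 1.096 with quantile normalization.

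With scaling to the median, 15 members were lower, 5 were 4-fold higher and 2 were 4-fold lower. In that setting 8 small heat shock proteins and 1 HSP90 were lower, 2 HSP70 were higher, and the medians of HSP70 and HSP90 were 0.19 and 0.60. Without scaling, 4 members were lower, 15 small heat shock proteins were higher and 1 HSP70 was lower, with medians of 0.98 for the small heat shock proteins, 0.91 for HSP70 and 1.32 for HSP90. With spike-in scaling, 42 members were higher and 4 lower, 20 small heat shock proteins and 9 HSP70 were higher and 1 HSP70 was lower, with medians of 1.33, 1.25 and 1.67 for small heat shock proteins, HSP70 and HSP90. The shifts of the medians follow from the construction of the scalings, which add 1 constant per array. The counts also depend on the spread that limma shares over loci. Its SD was 0.158 in the main setting and 0.373 without scaling.

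When each array was left out in turn, 17 to 28 members were higher and 7 to 9 lower, and 5 to 9 were 4-fold higher and 1 was 4-fold lower each time. The fewest higher calls came without leaf replicate 2. Small heat shock proteins had 9 to 12 higher and 2 to 4 lower, with medians from 0.40 to 0.58. HSP70 had 2 to 5 higher and 2 lower, with medians from 0.34 to 0.62, and the count was 2 without either leaf replicate. HSP90 had 2 to 4 higher and 0 lower, with medians from 0.82 to 0.90, and the count was 2 without leaf replicate 2. The lone array of a tissue is assumed there to vary like those of the other tissue.

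The replicate numbers gave no sign of pairing (correlation of replicate deviations between the tissues 0.09 over all loci). With a replicate block, 25 members were higher and 9 lower, 10 and 3 of the small heat shock proteins, 6 and 2 of HSP70 and 5 and 0 of HSP90.

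Signs changed almost only in members that were not called. Among those listed next, AT2G03020, AT4G16550, AT4G16560, AT3G49770 and CLPB2 lack a level well above background in leaf, and the sign of their values is not interpreted. With normexp, AT3G52490 was at -0.019, AT1G59860 at -0.045, AT1G54400 at -0.092, AT1G76770 at -0.10, AT4G16550 at -0.21, AT2G03020 at -0.22, AT3G49770 at -0.26 and AT4G16560 at -0.28. With quantile normalization, AT3G52490 was at -0.066, AT1G54400 at -0.19 and AT1G59860 at -0.20. With scaling to the median, AT3G49770 was at -0.033, AT1G11660 at -0.084, AT4G16660 at -0.14, AT1G54400 at -0.19, AT1G59860 at -0.22, AT3G52490 at -0.23 and AT4G16560 at -0.25. Without scaling, CR88 (AT2G04030) was at 0.037, AT2G27140 at 0.054, AT1G54050 at 0.11, AT5G20970 at 0.13, AT4G30350 at 0.21, AT4G21870 at 0.22 and AT5G47590 at 0.28. With spike-in scaling, CLPB2 (AT4G14670) was at 0.079, the called AT5G54660 at 0.18, AT3G10680 at 0.23, AT2G04030 at 0.39, AT2G27140 at 0.40, AT1G54050 at 0.46, AT5G20970 at 0.48, AT4G30350 at 0.56, AT4G21870 at 0.57 and AT5G47590 at 0.63. When each array was left out in turn, the sign of 7 of these members was not constant. AT3G52490 ran between -0.076 and 0.22, AT1G59860 between -0.068 and 0.22, AT1G54400 between -0.084 and 0.30, AT4G16560 between -0.15 and 0.24, AT4G16550 between -0.15 and 1.04, AT5G47590 between -0.47 and 0.20 and AT3G49770 between -0.42 and 0.94.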
